A study of Mus musculus with 12 samples.

Results

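The cytosolic ribosomal protein genes of the mouse fetal liver were taken as the 84 rows of the deposited table whose gene symbols follow the family's naming (Rpl or Rps with a number, alone or followed by a, x, l, al or l1; Rplp0, Rplp1 and Rplp2; and Rpsa), of 30743 rows in all. The rule used symbols and no measured value. Messenger RNA was sequenced from whole livers of 12 male C57BL/6J fetuses at 15 ± 0.5 dpc (days post coitum). The dams of 6 fetuses had eaten a control diet with 13.5% of its calories from fat, and those of the other 6 a high-fat diet (HFD) with 60%, each for 12 to 14 weeks. The labels name no genetic alteration and no drug in either group. The column used here holds 1 value for each gene, the authors' average over the 12 livers of both diets on the log2 scale of CPM (reads of a gene per 1e+06 reads of the library), so that 0 is 1 CPM. It has no spread between livers, and the diets cannot be compared with it. Every level below is therefore a description without a test, and the order of neighbouring genes carries no error.

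A ribosome is built of a small and a large subunit, each a scaffold of ribosomal RNA carrying proteins that are, with the exception of the stalk proteins, present once per particle. The proteins named Rps belong to the small subunit, which reads the messenger RNA, and those named Rpl to the large subunit, which joins amino acids. Their genes are short, active in every cell and, in mammals, accompanied by many processed pseudogenes, which are intronless copies of the mRNA inserted elsewhere in the genome. In red cell precursors, which fill the fetal liver, the dose of single ribosomal proteins matters for growth, and loss of 1 allele of several of them causes Diamond-Blackfan anaemia in people.

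The sequences below show how far a coding sequence differs from its closest annotated pseudogene, among those aligned over at least 80% of it. They were chosen after the levels were seen, for a member without reads, a paralog with almost none, and 2 of the 4 members with the highest levels. Each pair shows the 90 coding bases without a gap in which the copies differ most (the first such stretch), read from GENCODE M21 transcripts on GRCm38, with differing bases in capitals. Rps28 (chr17:33819027-33824562, minus strand) and the processed pseudogene Gm10443 (chr6:86334031-86334240, plus strand) were identical over the whole coding sequence. The stretch covers coding bases 1 to 90.
Rps28: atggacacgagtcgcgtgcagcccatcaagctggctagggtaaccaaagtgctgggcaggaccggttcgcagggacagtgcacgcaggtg
Gm10443: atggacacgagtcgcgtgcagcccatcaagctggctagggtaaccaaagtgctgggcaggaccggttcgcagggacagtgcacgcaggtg
Rpl22l1 (chr3:28805436-28807424, plus strand) was 99.5% identical to the transcribed processed pseudogene Gm15421 (chr5:22528321-22529244, minus strand). In coding bases 49 to 138 they differed at 1 position.
Rpl22l1: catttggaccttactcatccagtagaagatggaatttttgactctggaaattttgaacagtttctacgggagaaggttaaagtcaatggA
Gm15421: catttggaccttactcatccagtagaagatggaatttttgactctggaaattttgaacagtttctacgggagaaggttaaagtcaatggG
Rpl8 (chr15:76904078-76906314, plus strand) had no closer annotated pseudogene aligned over at least 80% of its coding sequence than Gm14294 (chr2:179364293-179365043, plus strand). Rpl8 and Gm14294 were 74.4% identical over the 92.9% of the coding sequence that aligned. In coding bases 172 to 261 they differed at 29 positions.
Rpl8: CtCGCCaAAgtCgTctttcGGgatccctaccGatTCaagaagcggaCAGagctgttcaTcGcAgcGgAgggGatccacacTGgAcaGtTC
Gm14294: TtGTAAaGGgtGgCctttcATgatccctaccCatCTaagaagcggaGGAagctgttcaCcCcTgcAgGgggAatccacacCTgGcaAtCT
Rpl4 (chr9:64173375-64178666, plus strand) was 96.9% identical to Gm5835 (chr1:143093347-143094616, minus strand). In coding bases 509 to 598 they differed at 6 positions.
Rpl4: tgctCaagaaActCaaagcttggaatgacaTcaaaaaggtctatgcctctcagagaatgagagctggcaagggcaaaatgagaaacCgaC
Gm5835: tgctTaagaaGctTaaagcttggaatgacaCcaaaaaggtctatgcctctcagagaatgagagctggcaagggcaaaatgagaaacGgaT

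The tissue was recognisable from its markers. The albumin gene Alb had the highest level of the table (15.95 log2 CPM), followed closely by Afp (15.73), the fetal counterpart of albumin, and by the globin gene Hba-a2 (15.60). Of the markers present as rows, 5 of 6 hepatocyte, 5 of 6 erythroid, 3 of 4 stem and progenitor, 3 of 3 megakaryocyte, 3 of 5 myeloid and 2 of 3 B lineage genes were above 1 CPM. Genes of skeletal muscle (4 of 4, from 2.77 to 5.78 log2 CPM) and of the exocrine pancreas (3 of 4, up to 3.78) were above 1 CPM too, and none of 4 germ cell genes was. Their part in the levels of the ribosomal protein genes was not tested, and in RNA of whole livers fewer cells of a type and less RNA per cell cannot be told apart. Some genes that fetal liver cells are known to use stood at the bottom of the table: Hnf4a, a master regulator of hepatocytes, was listed at the value of rows without reads (-2.71 log2 CPM), and Kit, the receptor of blood progenitors, at -2.66.

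The 84 ribosomal protein genes ranged from -2.71 log2 CPM, the bottom of the table, to 11.25. Their median level was 4.07 log2 CPM (quartiles 0.96 and 7.03), beside -2.17 for all rows of the table, and 71 of them (84.5%) were above 1 CPM, as were 33.1% of all rows. At the top, 5 members exceeded 1000 CPM and 19 lay between 100 and 1000 CPM, while 25 were between 10 and 100 CPM, 22 between 1 and 10 CPM, and 13 at or under 1 CPM. Together the family held 1.66% of the summed CPM of the table. That share was concentrated: the 5 highest members made up 57.2% of the family's sum, and the 20 highest 92.1%.

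**Figure D1:**
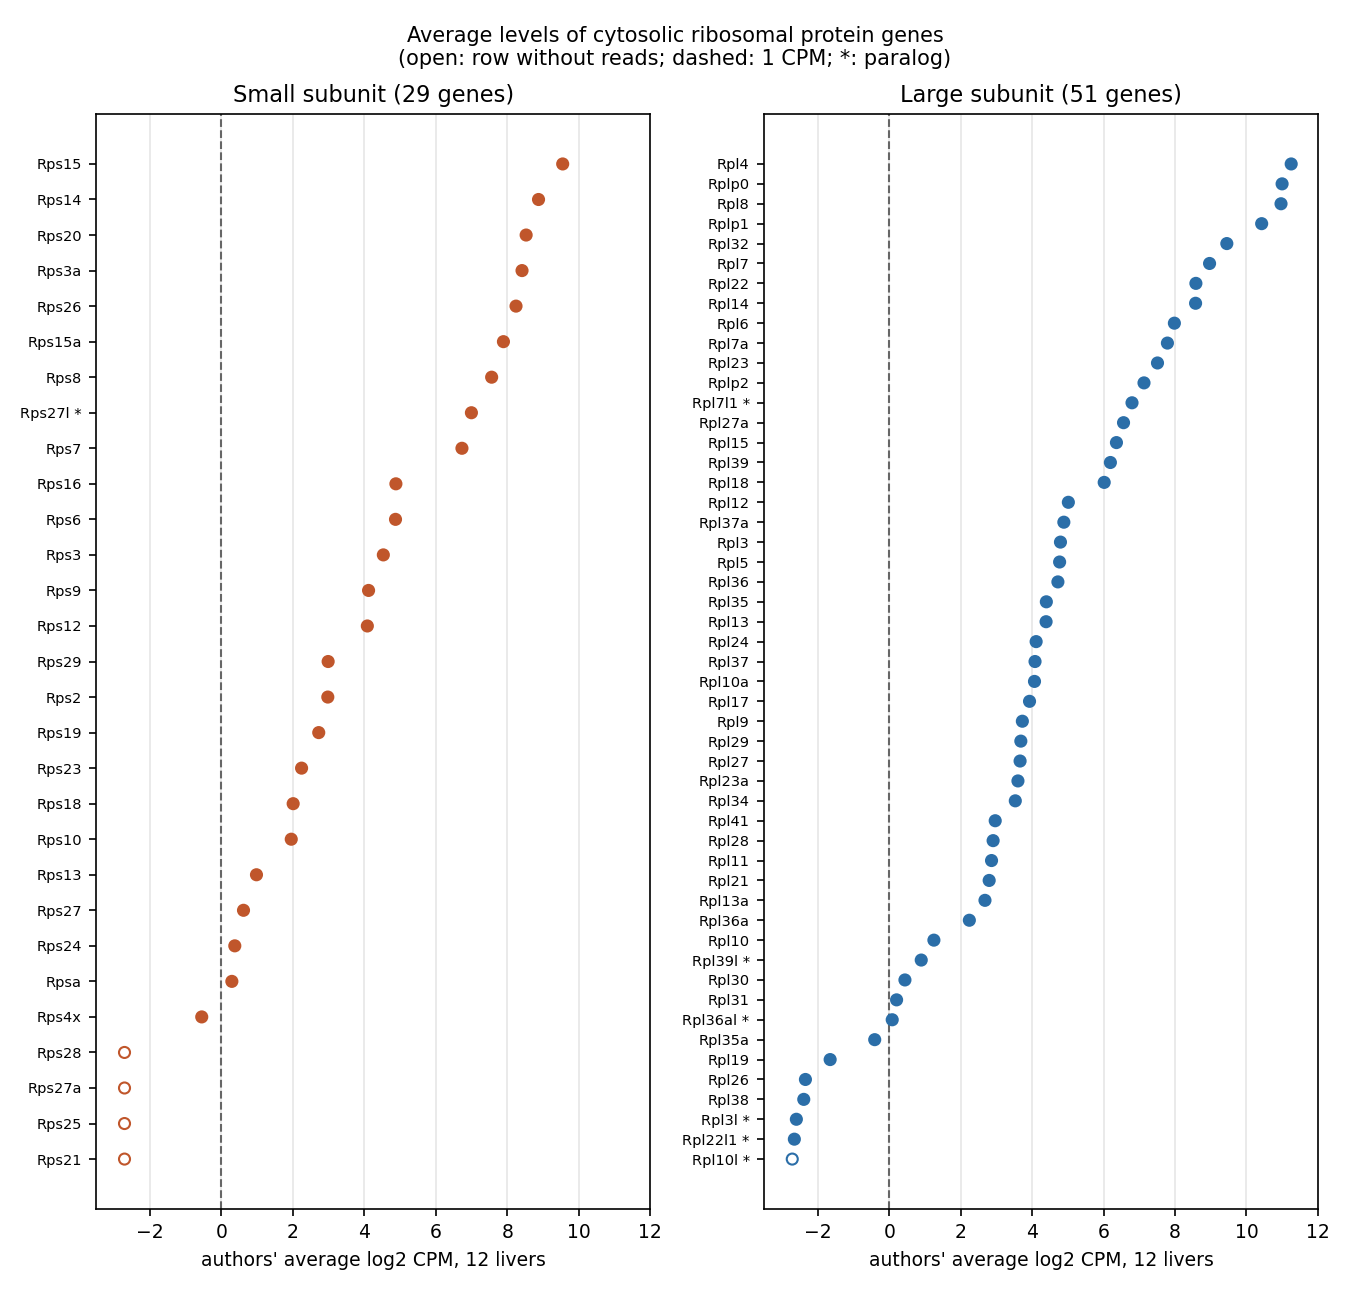
Authors' average log2 CPM over 12 livers (horizontal axis) of 80 of the 84 members, with small subunit genes on the left (29) and large subunit genes on the right (51), ordered by level, with open circles for rows without reads, a dashed line at 1 CPM and asterisks for paralogs. The levels run from -2.71 (5 genes) to 11.25 (Rpl4) and are not divided by gene length.

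Undivided by length, the highest members were all far above the median. Rpl4, which lines part of the tunnel through which new proteins leave the ribosome, stood at 11.25 log2 CPM (2441 CPM). Rplp0, the base of the stalk that binds elongation factors, followed at 11.00 (2046 CPM), Rpl8, which sits close to the catalytic centre, at 10.97 (2003 CPM). Rplp1, a stalk protein, was also among the 5 highest, at 10.43 (1376 CPM).

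The lowest members include standard proteins of the ribosome. Rps21, Rps25, Rps27a and Rps28 were listed at -2.71 log2 CPM, the value of the 11091 rows without reads, as was the paralog Rpl10l. The paralog Rpl22l1 stood at -2.66, the value predicted for 1 read in the 12 libraries together, and the paralog Rpl3l at -2.60, about 2 reads. Rpl38 (-2.39), a protein known for its role in the translation of Hox mRNAs, and Rpl26 (-2.35) corresponded to about 6 and 7 reads in all. Rpl19 (-1.65), Rps4x (-0.55) and Rpl35a (-0.41) were also among the 13 members at or under 1 CPM. For comparison, Rpl4 corresponded to about 384515 reads. Since genes that every cell uses are among them, a value at the bottom of the table was not read as absence of the mRNA.

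Levels of different genes can be set side by side only per length of mRNA. Over the 71 members above 1 CPM, the level per kilobase of the longest annotated mRNA had a median of 4.48 log2 CPM per kilobase and an interquartile range of 4.64. For the 61 mitochondrial ribosomal protein genes above 1 CPM, whose proteins build the separate ribosome of mitochondria, the median was 4.66 and the interquartile range 2.41. For the 50 initiation factor genes (symbols Eif1 to Eif6 with any suffix) the values were 5.51 and 4.21, and for all other 9462 matched rows above 1 CPM they were 2.34 and 4.20. The cytosolic family as a whole had a lower median per kilobase than both of these translation lists and a wider interquartile range, without a test of either. This depended on the members taken: the 10 canonical members above 1 CPM without a close copy in another gene, described below, had a median of 9.66, above both lists, and an interquartile range of 2.60. That group was chosen after the data were seen, and neither list was restricted to genes without copies. The limit of 1 CPM also leaves out Rps21, a canonical member without a close copy, listed at -2.71 log2 CPM.

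The 5 highest members per kilobase included Rplp1 (11.43 log2 CPM per kilobase, the highest), Rpl8 (10.94), Rpl4 (10.63) and Rplp0 (10.56). The 5 are the same genes as by level. At the other end were Rps13 (0.58), Rpl31 (0.14), the paralog Rpl36al (-0.27), Rps24 (-0.32) and Rpsa (-0.66), which doubles as a laminin receptor. Between Rplp1 and Rpsa lay 12.09 log2 units. Dividing by coding length in place of mRNA length kept 9 of the 10 highest genes among the 10 highest.

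Both subunits spanned a similar range. The 27 small subunit genes above 1 CPM had a median of 4.73 log2 CPM per kilobase and the 44 large subunit genes one of 4.46. The difference, 0.27, was small beside the interquartile ranges of 5.44 and 3.97, and it changed sign with the length used (-0.43 per kilobase of coding sequence). All 4 canonical members without reads were small subunit genes, 4 of 31, while none of the 46 canonical large subunit genes was without reads. Of all rows, 36.1% were without reads. This split rests on the lowest value, since Rpl38 and Rpl26 of the large subunit had only about 6 and 7 reads. Above 1 CPM were 83.9% of the canonical small and 89.1% of the canonical large subunit genes. The 3 stalk genes were all well covered, at 11.00 (Rplp0), 10.43 (Rplp1) and 7.13 log2 CPM (Rplp2), or 10.56, 11.43 and 7.19 per kilobase.

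Of the genes mutated in Diamond-Blackfan anaemia, the highest per kilobase, Rps26, ranked 10 among the 71 members above 1 CPM. Of 19 such genes, 16 (84.2%) were above 1 CPM, close to the 87.9% of the other canonical members. Of all rows of the table, 33.1% were above 1 CPM. The 16 genes had a median of 3.93 log2 CPM per kilobase, against 4.75 for the 51 other canonical members above 1 CPM, with interquartile ranges of 2.68 and 4.44. Rps26, which sits at the exit of the mRNA channel, had 8.80 log2 CPM per kilobase, and Rps7 (6.80), Rps15a (5.52) and Rpl15 (5.42) came next. The order depended on the length used. Per kilobase of coding sequence Rps26 had 9.78, Rps15a (9.25) stood above Rps7 (7.51), and Rpl18 (6.84) above Rpl35 (5.84). Rpl35 (4.48), Rpl18 (4.44), Rps29 (4.34) and Rpl27 (4.11) were lower per kilobase, as were Rpl5 (3.74) and Rpl11 (3.13), which together restrain Mdm2 when ribosome assembly fails. Rps19, the gene most often mutated in the disease, had 2.36 log2 CPM per kilobase (a level of 2.72 log2 CPM, or 6.60 CPM). Rps10 (2.13), Rps27 (1.74), Rpl31 (0.14) and Rps24 (-0.32) were at the low end per kilobase. Undivided by length, Rpl35a (-0.41 log2 CPM), Rpl26 (-2.35) and Rps28 (-2.71) were below 1 CPM. The share of coding sequence that these genes share with no other gene, described next, had a median of 4.69%, against 9.22% for the other 58 canonical members, and its part in the difference was not tested. Rps14, whose loss of 1 copy underlies the anaemia of the 5q deletion in people, was among the highest members, at 8.88 log2 CPM and 9.22 per kilobase.

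The 4 X-linked members were low to moderate, at 6.19 (Rpl39), 2.24 (Rpl36a), 1.25 (Rpl10) and -0.55 log2 CPM (Rps4x). Of the ribosomal proteins made as fusions with ubiquitin or a ubiquitin-like protein, the member Rps27a was listed at -2.71, and Fau, outside the naming rule, stood at -0.11 log2 CPM.

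Most members share their coding sequence with other annotated genes. A 50-base stretch of coding sequence was counted as unshared when no transcript of another GENCODE M21 gene held it on either strand. The median member had 9.20% of its coding 50-base stretches unshared, where the median of all 20266 rows with a coding sequence was 100%, and 30 of the 84 members (35.7%) had none unshared, as had 1.88% of all such rows. At least 1 other gene held a copy at 98% identity or more over at least 80% of the coding sequence for 68 members. Over the family there were 253 such copies, of which 233 are annotated as pseudogenes and 9 are rows of the deposited table, and Rpl21 had the most (16).

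The level moved with this sharing. The 26 members above 1 CPM with no unshared coding stretch had a median of 3.63 log2 CPM per kilobase, the 27 with up to 25% unshared 4.48, and the 18 with more 9.01. Leaving paralogs aside, the 10 members above 1 CPM without a copy of 98% identity had a median of 9.66 log2 CPM per kilobase (3.60 to 11.06), and the 57 with such a copy a median of 4.36 (-0.66 to 11.43). The ranges overlapped, and genes with copies lay at both ends: Rplp1 and Rplp0, with 1 copy each, were among the highest. Across the 71 members above 1 CPM, the correlation of the level per kilobase with the unshared share was 0.50 (Spearman's rho) and 0.49 (Pearson's r). Over all 84 members the correlation with the level, undivided by length, was 0.37 and 0.29, where low members with mostly unshared sequence such as Rps21 and the paralogs Rpl10l and Rpl3l are included. With the unshared share of the longest mRNA in place of the coding sequence, it was weaker over the 84 members, at 0.22 and 0.21. The genes share libraries and depth and are not independent, so no p is given. Whether reads were lost or moved between copies was not tested.

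**Figure D2:**
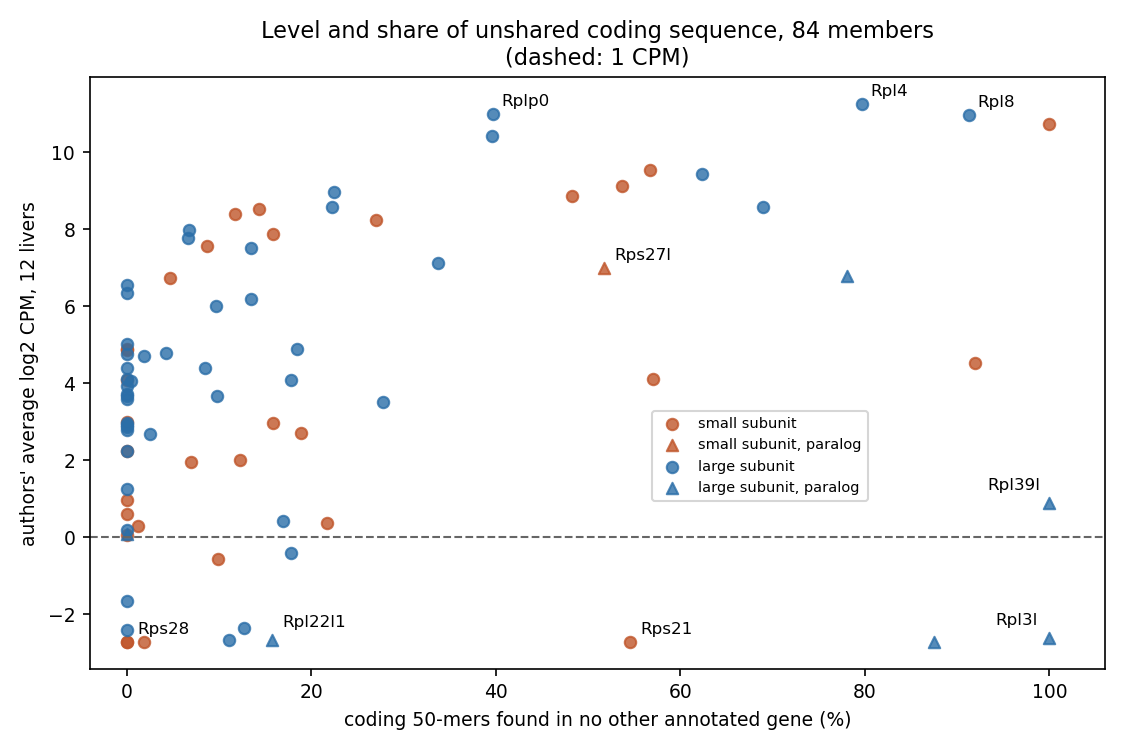
Authors' average log2 CPM over 12 livers (vertical axis, not per length) against the percentage of coding 50-base stretches found in no other annotated gene (horizontal axis) for the 84 members, with the small subunit in orange, the large in blue, paralogs as triangles and a dashed line at 1 CPM. The members above 10 log2 CPM have at least 39.6% unshared sequence, and those with none reach 6.56 (Rpl27a), while Rps21 and the paralogs Rpl10l, Rpl3l and Rpl39l are low with mostly unshared sequence.

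Among the canonical members without a close copy, Rpl4, Rpl8, Rps15 (10.36 log2 CPM per kilobase), Rpl32 (9.59), Rps14 and Rpl22 (7.55) were high. Rps9 (3.69 per kilobase) and Rps3 (3.60) were lower, with 57.0% and 91.9% of their coding stretches unshared, and Rps21 was listed at -2.71 log2 CPM with 54.5% unshared. These genes were picked for this property after their values were seen.

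A second feature that moved with the level was the number of mRNAs annotated per gene. RefSeq (GRCm38.p6) lists 1 curated mRNA for 63 members and 2 or more for 21. The members with 1 had a median of 4.40 log2 CPM, and 58 of 63 (92.1%) were above 1 CPM. Those with 2 or more had a median of 0.44, and 13 of 21 (61.9%) were above 1 CPM. Rps21 has 6 curated mRNAs, and Rps28 and Rps27a 2 each, but Rps25 has 1. Per kilobase, the members above 1 CPM had medians of 4.69 and 3.93. Outside the family the pattern was mixed. The median was -0.42 log2 CPM over 12475 other rows with 1 curated mRNA and -0.91 over 7739 with more, 47.7% and 40.4% were above 1 CPM, and the upper quartiles were 4.56 and 1.82. Rows without reads went the other way, at 24.5% and 18.6%, whereas in the family they were 3.17% and 14.3%. Hnf4a and Kit have 3 and 2 curated mRNAs. In the mitochondrial ribosomal protein genes the median levels were 5.68 (53 genes) and 1.81 log2 CPM (23 genes), with 100% of the coding stretches of the median gene unshared in both. The part of the mRNA number in these levels was not tested.

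**Figure D3:**
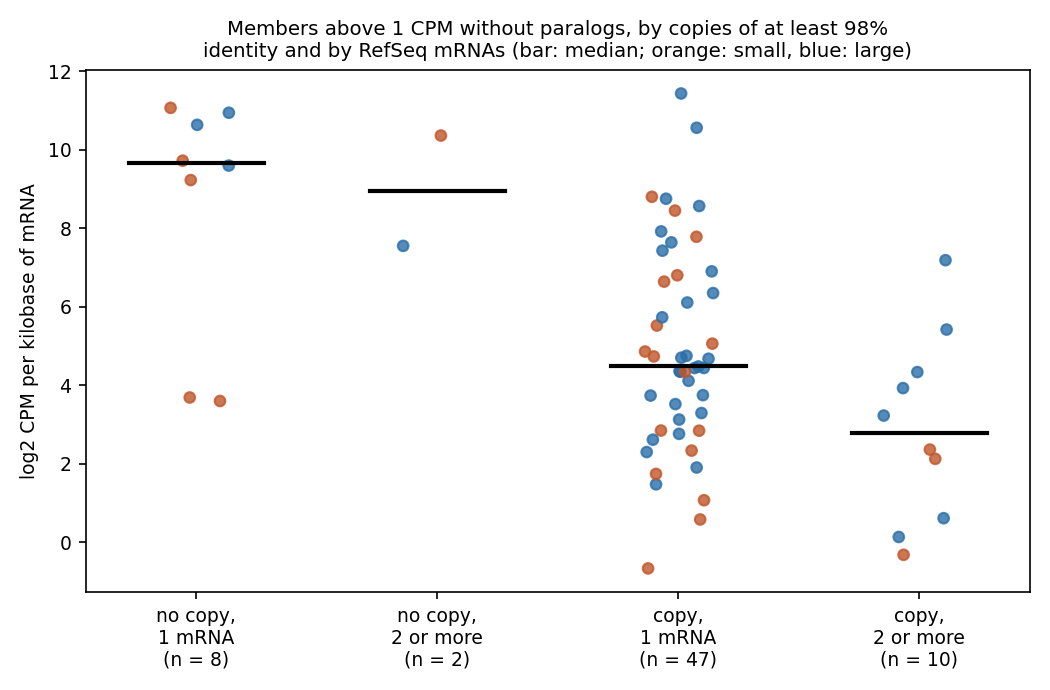
Log2 CPM per kilobase of the longest mRNA (vertical axis) of the 67 canonical members above 1 CPM, grouped by whether another gene holds a copy of at least 98% identity and by 1 or more RefSeq mRNAs, with a bar at each median and the small subunit in orange, the large in blue. The medians are 9.66 (8 genes), 8.95 (2 genes), 4.48 (47 genes) and 2.80 (10 genes) from left to right, and the groups overlap.

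Some copies are rows of the table with reads of their own. These rows were chosen after their values were seen. Gm15421, the copy of Rpl22l1 shown above, stood at 7.89 log2 CPM (237 CPM), whereas Rpl22l1 itself stood at -2.66. Gm15772, a processed pseudogene 99.5% identical to Rpl26, stood at 0.82 beside -2.35 for Rpl26. Gm10653, 91.6% identical to Rps2, stood at 5.03 beside 2.98, and Rps19-ps3, 95.3% identical to Rps19, at 2.94 beside 2.72. In these 4 cases of 15 the pseudogene row was above its parent gene. In the other 11 it was below, among them Gm6251 (7.41 beside 9.45 for Rpl32), Rps15a-ps6 (5.91) and Rps15a-ps4 (3.25), beside 7.89 for Rps15a, and Rpl34-ps1, listed at -2.71 beside 3.53 for Rpl34. The 15 copies are at least 90% identical to their members, some of them near-identical. How reads were divided between a gene and its copy is uncertain. These levels are not divided by length. Adding all 15 pseudogene rows to the members changed the family's share of the summed CPM from 1.66% to 1.72%.

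The paralogs, which in several cases encode a variant that replaces a canonical protein in particular tissues, were mostly below their canonical partners. Over the 7 that are rows, levels ran from -2.71 to 7.00 log2 CPM, with a median of 0.08. Rpl3l, the form of Rpl3 used in heart and skeletal muscle, stood at -2.60 log2 CPM with all of its coding stretches unshared, and Rpl10l, which stands in for X-linked Rpl10 in male germ cells, was listed at -2.71. Rpl39l, also known from testis, was at 0.90, or 1.21 per kilobase, where Rpl39 had 6.90. Rpl36al was at 0.08, or -0.27 per kilobase, beside 3.29 for Rpl36a. Rpl22l1 stood below 1 CPM, at -2.66 log2 CPM, and its 99.5% identical copy Gm15421 at 7.89. Rpl22, a protein needed for T cell development, stood above Rpl22l1, at 8.59 log2 CPM. Rpl7l1 (6.80, or 5.41 per kilobase) was also below Rpl7 (8.97, or 8.75 per kilobase). Rps27l, a gene that p53 can induce, was the exception: it stood at 7.00 log2 CPM, or 7.80 per kilobase, and Rps27 at 0.62, or 1.74 per kilobase. Of their coding 50-base stretches, 51.7% were unshared in Rps27l and none in Rps27. Rps4l, the remaining paralog listed, is not a row of the table.

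Ribosomal protein mRNAs are known to begin with a run of pyrimidines, the terminal oligopyrimidine motif, through which mTOR signalling governs their translation. In windows of 30 bases, from 10 before to 20 after the annotated start (RefSeq, GRCm38.p6), 3 short forms of such a run were searched, CTTTT and CTTTC, and also CTCTT, which can overlap each other. On the transcribed strand at least 1 of them was found for 22 of the 63 members in the promoter table (34.9%) and for 11.2% of the 26962 other genes. On the opposite strand the shares were 4.76% and 11.0%. CTTTC was the most frequent in the members (23.8%, against 4.38% of the others), followed by CTCTT (20.6%, against 4.56%) and CTTTT (7.94%, against 3.61%). At least 2 of the forms were found in 11 members. The windows of 4 of these, not necessarily the 4 highest by level, are shown with the matches in capitals, to show where they lie. They lie at chr10:128626487-128626516 (Rps26, minus strand), chr2:26910797-26910826 (Rpl7a, plus strand), chr7:109519185-109519214 (Rpl27a, plus strand) and chr7:45718061-45718090 (Rpl18, plus strand).
Rps26: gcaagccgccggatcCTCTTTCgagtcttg
Rpl7a: CTCTTCTTTCTTTCtccagcagccgagcaa
Rpl27a: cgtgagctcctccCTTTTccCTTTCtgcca
Rpl18: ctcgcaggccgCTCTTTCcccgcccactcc
The annotated mRNA start follows the first 10 bases of each window. In Rpl7a the marked run covers it, and in the other 3 the marked run begins after it, so that none begins exactly at the annotated start. RefSeq starts can differ from those of GENCODE M21. Their levels were 8.25, 7.79, 6.56 and 6.02 log2 CPM. A match is a description of the letters and not of a working site.

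The members lie on 19 chromosomes, with the most on chromosome 7 (14 genes), followed by chromosomes 17 (8), 9 and 11 (7 each). The 4 genes on the X chromosome are those given above.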

How the data were processed

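Polyadenylated RNA of 12 male fetal livers (6 control, 6 HFD) was sequenced from an unstranded TruSeq library. According to the study's methods and the submitters' processing notes, the authors aligned reads to mm10 with Subread 1.3.6-p1 (cutadapt 1.2.1 is also listed), took gene annotation from biomaRt and ran edgeR. The read counter, that tool's version and the normalization are not given in the sources used here. The deposited table holds log2 values, the average log2 CPM over all livers computed by the authors, once for a common and once for a tagwise dispersion; the first was used. Its other columns hold the authors' comparison of the diets (log2 fold changes, signed fold changes, p-values and adjusted p-values) and were not used. The planned quasi-likelihood test of the diets needs counts for each liver and was not run. Columns of single livers left unused numbered 0.

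Symbols were matched to GENCODE M21 (GRCm38, the build of mm10) for 22837 rows and all 84 members, 1 through an older symbol (Rps3a). Lengths are those of the longest annotated mRNA, and the coding sequence is that of the principal transcript. Unshared 50-base stretches were counted over all GENCODE M21 transcripts of other genes, and copies were found with blastn 2.17.0 (E-value limit 1e-05). Unannotated genomic copies were not searched. Both steps were tested on simulated sequences with known copies. Depth was solved from the lowest value, shared by all rows without reads, assuming a prior count of 2: the mean library held about 13129748 reads, and 1 CPM corresponds to about 158 reads over the 12 livers. Under that assumption 1 read gives -2.66, and 1267 rows lie closest to it. A count of 0 allows up to 3 reads, or 0.0190 CPM, for counting error only. Depth of single libraries is unknown.

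Genes named are the 5 highest and 5 lowest members per kilobase above 1 CPM, the 5 highest by level, members at or under 1 CPM, and the fixed lists (paralogs, stalk, Diamond-Blackfan anaemia, X-linked, ubiquitin fusions, cell type markers). Others were chosen after their values were seen. A few genes that the rule would name are not reported here. The members and lists were chosen with earlier results of these data known. No test was made across genes. Python 3.11.15, numpy 2.4.6 and pandas 2.3.3 were used.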

Additional observations from a re-analysis of the deposited data

How the results depend on the processing

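The median level of 4.07 log2 CPM became 4.53 with only members above 1 CPM and 4.08 without paralogs, and was the same over members with a RefSeq protein. The number of members above the limit was 71 at 1 CPM, 62 at 2 CPM and 49 at 10 CPM. The share of 1.66% was 1.67% with the value of rows without reads subtracted, with only rows above 1 CPM and with named pseudogene rows added, and 1.72% with all pseudogene rows of at least 90% identity (chosen after seeing the data). The interquartile range of 4.64 was 4.85 with coding length and 4.75 without members that have a named pseudogene row. With alternatives chosen after seeing the data it was 4.38 (principal mRNA), 4.44 (per kilobase of unshared sequence), 4.94 (members without a close copy) and 2.60 (those without paralogs). The difference of the subunits, 0.27, was 0.061 without paralogs and 0.23 with the principal mRNA, and reversed to -0.43 with coding length and to -0.029 without division by length; the cause was not tested.

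No paired analysis was possible because the column used holds no value for a single liver, and no diet test, replicate left out, DESeq2 fit or other alternative for it was run. The average pools both diets, so depth and spread per liver limit every level to a description.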
